A study of Mus musculus with 12 samples.

Results

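The genes described are 32 genes of cholesterol synthesis and its control in J774A.1 cells, a mouse macrophage line, chosen by gene symbol from the count tables. They comprise 18 enzymes of the pathway, 5 genes of the sterol regulatory element-binding proteins (SREBP) and their regulators, 6 genes of sterol transport, esterification and export, and 3 genes of the liver X receptors (LXR) and a ubiquitin ligase they induce. All 32 were listed in both tables, of 17544 genes listed for unstimulated cells, 17874 after lipopolysaccharide (LPS) and 16699 in both, and all 32 passed the filter on low counts in every comparison. RNA-seq had been run on 12 libraries, from 3 WT and 3 ACAT1 KO lines, each left without stimulation or given LPS at 100 ng/mL for 2 h. ACAT1 KO cells carried a CRISPR-Cas9 edit directed to the fourth exon of Acat1, the mitochondrial acetyl-CoA acetyltransferase that works at the end of fatty acid oxidation and in ketone and isoleucine breakdown. WT cells had been transfected with the same Cas9 and GFP plasmid without a guide. GFP-positive cells of both were sorted and grown as clones, so a genotype is 3 lines of 1 parent line. The effect of the edit and chance differences between clones can be told apart only through the spread between the libraries of these lines. LPS is a bacterial cell wall component that activates macrophages through Toll-like receptor 4. Soat1, among the members, encodes the sterol acyltransferase that also goes by the name ACAT1. It is a different gene from the edited Acat1.

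Cholesterol is built from acetyl-CoA through mevalonate, isoprenoid diphosphates, squalene and lanosterol. When sterol in the endoplasmic reticulum is low, SCAP carries SREBP to the Golgi, where it is cut and released to switch on the genes of synthesis and uptake, and when sterol is high, INSIG proteins hold SCAP back. Oxysterols activate LXR, which induces the exporters Abca1 and Abcg1 and the ligase Mylip, also known as IDOL, which marks lipoprotein receptors for breakdown, and macrophages use both arms to handle the cholesterol of the cells and lipoproteins they take up.

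The libraries held 56948593 to 167280149 counts. Acat1 was at 89.8 to 120 CPM (counts scaled to a common library total) in unstimulated WT and 28.6 to 32.1 CPM in unstimulated ACAT1 KO libraries, and at 58.2 to 84.8 and 16.7 to 17.9 CPM after LPS. Of 5 LPS response genes checked, 4 rose in WT and 5 in ACAT1 KO cells, at an adjusted p under 0.05 in edgeR. Over all genes 29.3% and 29.5% rose. Tnf rose by 5.07 in WT and 4.95 in ACAT1 KO cells on the log2 scale. Compared after LPS, 4 of the 5 were higher in ACAT1 KO than in WT cells, against 5.93% of all genes. Among them were Il1b (1.46), Il6 (1.4) and Tnf (0.59). Their responses differed by 1.22 (SE 0.503), 1.18 (SE 0.475) and -0.13 (SE 0.363), none at an adjusted p under 0.05 in edgeR. All 8 macrophage markers examined were listed. Their sum was at 8800 to 9700 CPM in WT and 9770 to 11200 CPM in ACAT1 KO libraries without stimulation and at 9160 to 9520 and 9160 to 10700 CPM after LPS, most of it Lyz2. Between the genotypes Adgre1 (-0.78) and Fcgr1 (-0.69) were lower in ACAT1 KO cells without stimulation, and after LPS Fcgr1 (-1.07) was lower and Itgam (0.48) and Spi1 (0.26) higher, as log2 fold changes at an adjusted p under 0.05 in edgeR. Of 5 fibroblast, 5 lymphocyte and 4 epithelial markers only Pdgfra passed the filter on low counts, with Cd79a, which was under 1 CPM in every library. Pdgfra was at 1.19 to 1.67 CPM in WT and 1.14 to 1.36 CPM in ACAT1 KO libraries without stimulation and at 5.53 to 6.48 and 11.3 to 13 CPM after LPS, higher in ACAT1 KO cells after LPS by 0.99 (SE 0.0979, edgeR adjusted p = 0.00247). The part of these marker differences in the values of the 32 genes was not tested. In 3 unstimulated libraries, WT 1, WT 2 and ACAT1 KO 2, noncoding genes inside coding exons of the other strand took 0.0136 to 0.0209% of the counts, against 0.00221 to 0.00334% in the other 9 libraries. These 3 libraries, with what is called here the raised antisense share, also had lower totals than the other 9. CPM values, other than those of Acat1, which were scaled within each state, were scaled across all 12 libraries by the trimmed mean of M values (TMM) and compare a gene between libraries. They are given in the order of replicates 1, 2 and 3. The adjusted p is that of the quasi-likelihood test in edgeR, corrected by Benjamini and Hochberg's method over all genes tested. A gene was past the threshold when it was under 0.05.

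RefSeq promoters of 26 of the 32 genes were searched, 35 promoters in all. The remaining genes were left out of the search, and the motif shares do not cover them. Those of Hmgcs1 and Hsd17b7, which were lower in unstimulated ACAT1 KO cells, of Nsdhl, lower in ACAT1 KO cells after LPS, of Insig1, which fell after LPS, and of Mylip, whose response to LPS differed between the genotypes, are printed 5′ to 3′ on the strand of the gene. Capitals mark matches to the 4 motifs found among them, on either strand: the sterol regulatory element TCACNCCAC, the E-box CACGTG, the CCAAT box (CCAAT, or ATTGG on the other strand) and the GC box (GGGCGG or CCGCCC).
Hmgcs1: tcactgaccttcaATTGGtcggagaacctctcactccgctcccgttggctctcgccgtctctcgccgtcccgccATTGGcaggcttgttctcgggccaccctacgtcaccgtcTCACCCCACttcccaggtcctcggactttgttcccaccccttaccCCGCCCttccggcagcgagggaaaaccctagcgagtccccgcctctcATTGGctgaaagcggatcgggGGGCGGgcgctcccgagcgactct
Hsd17b7: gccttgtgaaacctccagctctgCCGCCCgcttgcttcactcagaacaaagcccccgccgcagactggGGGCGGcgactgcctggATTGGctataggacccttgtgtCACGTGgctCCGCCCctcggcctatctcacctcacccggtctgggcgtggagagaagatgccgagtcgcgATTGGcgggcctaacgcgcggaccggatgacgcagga
Nsdhl: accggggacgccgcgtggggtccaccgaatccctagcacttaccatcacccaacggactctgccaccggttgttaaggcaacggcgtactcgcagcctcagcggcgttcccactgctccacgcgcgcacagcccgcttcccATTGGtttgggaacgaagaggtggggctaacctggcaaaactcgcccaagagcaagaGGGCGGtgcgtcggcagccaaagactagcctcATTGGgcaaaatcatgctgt
Insig1: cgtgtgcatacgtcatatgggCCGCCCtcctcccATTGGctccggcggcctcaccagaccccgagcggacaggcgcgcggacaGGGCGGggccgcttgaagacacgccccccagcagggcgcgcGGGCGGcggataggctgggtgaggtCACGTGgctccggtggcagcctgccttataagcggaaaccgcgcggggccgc
Mylip: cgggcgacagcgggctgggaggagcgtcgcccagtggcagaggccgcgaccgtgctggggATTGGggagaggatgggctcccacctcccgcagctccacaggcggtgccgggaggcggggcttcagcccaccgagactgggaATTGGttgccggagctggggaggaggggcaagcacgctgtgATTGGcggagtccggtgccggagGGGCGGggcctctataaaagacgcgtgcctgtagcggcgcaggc
In build GRCm38.p6 these lie at chr13:119690101-119690350 (plus strand) for Hmgcs1, chr1:169969242-169969455 (minus strand) for Hsd17b7, chrX:72918271-72918520 (plus strand) for Nsdhl, chr5:28071162-28071362 (plus strand) for Insig1 and chr13:45389492-45389741 (plus strand) for Mylip. They end at the base before the RefSeq start, except that bases inside the GENCODE gene were left out for Hsd17b7, which ends at position -37, and Insig1, which ends at -50.

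SREBP binds sterol regulatory elements together with factors that bind CCAAT and GC boxes. The TCACNCCAC form was present in 1 of the 35 promoters (2.86%), that of Hmgcs1 at positions -137 to -129, against 1.05% of 32851 mouse promoters of the same 250 bases. The E-box, which SREBP can also bind, was in 6 (17.1%, against 6.02%), in Hsd17b7, Sc5d, Dhcr7, Scap, Insig1 and Abca1. CCAAT boxes were in 23 (65.7%, against 33.8%) and GC boxes in 24 (68.6%, against 32.7%). None of the 35 promoters held the consensus direct repeat of LXR (DR4), which 0.0152% of all promoters held. The matches did not overlap each other. The shares describe letters in a window and show no binding.

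**Figure D1:**
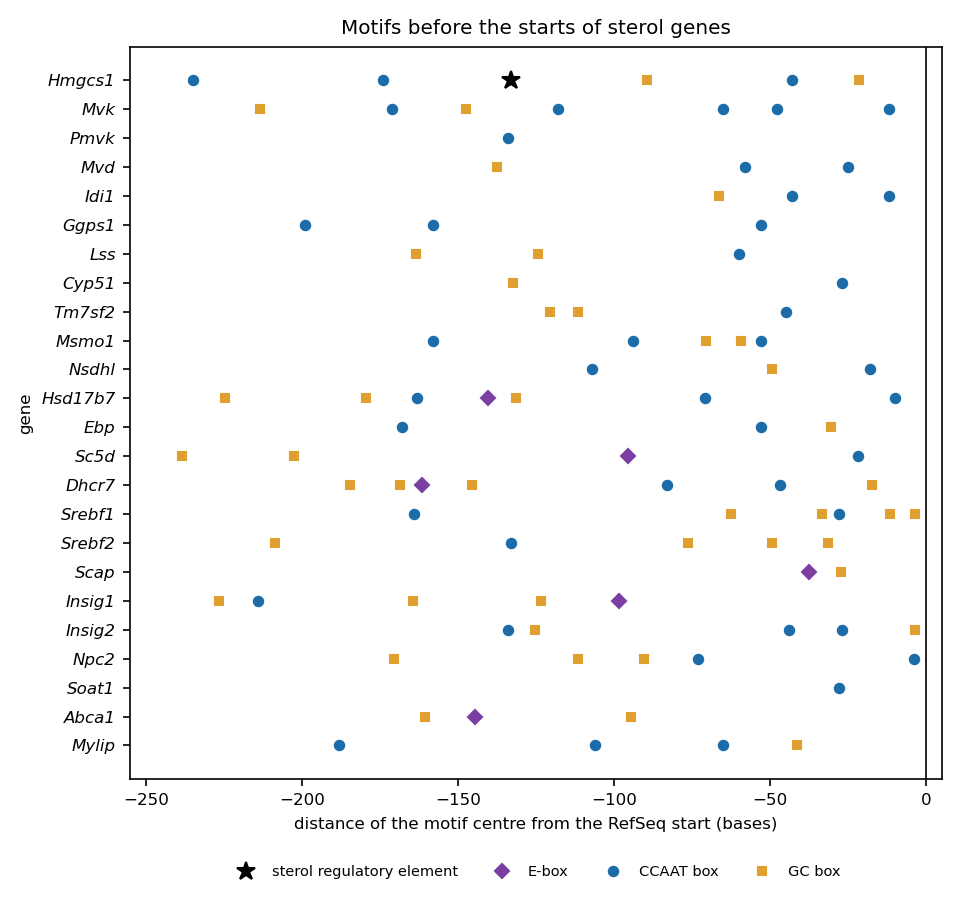
Positions of the 4 motifs in the 250 bases before the RefSeq start of the 24 genes with a match. The horizontal axis is the distance of the motif centre from the start in bases, and each marker is a match on either strand, with CCAAT and GC boxes in most genes, the E-box in 6 and the sterol regulatory element in Hmgcs1.

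Per kilobase of exon, the genes ranged widely in unstimulated WT cells. Exons of all annotated transcripts of a gene were counted, expressed or not, and the order of the genes depends on this length. Npc2, which takes up cholesterol inside lysosomes, had the highest level at 82.2 ± 3.17 CPM per kb (SD, n = 3). Srebf2 at 39.2 ± 6.66 and Soat1 at 34.7 ± 1.4 CPM per kb came next, with overlapping ranges. Srebf1 had 27.2 ± 0.708 CPM per kb, above Insig1 at 24.1 ± 0.594, while Sqle, at 24.1 ± 3.78, was the highest enzyme and overlapped both. Of the LXR pair, Nr1h2 (LXR beta) was at 23 ± 1.26 CPM per kb and Nr1h3 (LXR alpha) at 1.78 ± 0.26, the lowest of the 32. The remaining genes were between 2.44 CPM per kb for Tm7sf2 and 16.3 for Abca1.

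Of the 18 enzymes of cholesterol synthesis, 16 had a log2 fold change below 0 between ACAT1 KO and WT cells in each state. The medians of all genes were 0.004 without stimulation and -0.004 after LPS. Past the threshold as lower were 3 enzymes without stimulation, against 1.17% of all genes, and 5 after LPS, against 9.12%. With LPS 13 enzymes fell in WT, against 28% of all genes, and 14 in ACAT1 KO cells, against 31.2%. The summed level of the 18 enzymes was 740, 756 and 719 CPM in unstimulated WT and 633, 568 and 579 CPM in unstimulated ACAT1 KO libraries. After LPS it was 562, 561 and 511 CPM in WT and 430, 425 and 416 CPM in ACAT1 KO libraries. The 4 groups did not overlap, and LPS-treated ACAT1 KO libraries were the lowest.

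**Figure D2:**
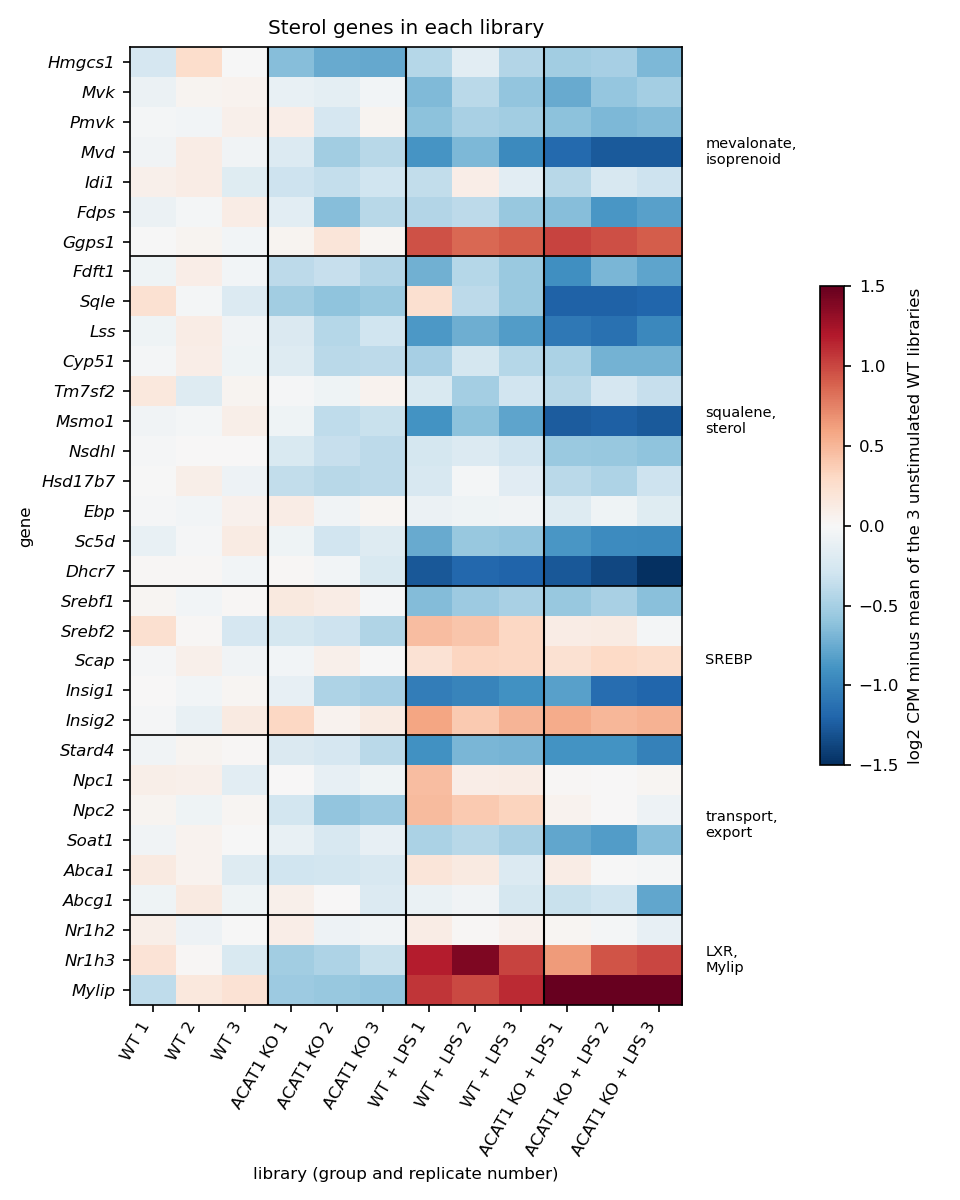
Log2 CPM of the 32 genes (rows, by role) in the 12 libraries (columns, by group and replicate number), as the difference from the mean of the 3 unstimulated WT libraries. Blue is lower and red higher, colours end at 1.5 either way, which the 3 LPS-treated ACAT1 KO libraries pass for Mylip and ACAT1 KO LPS 3 passes for Dhcr7. Most enzyme rows at the top are blue in the LPS-treated ACAT1 KO libraries, Ggps1 is red after LPS and Ebp stays pale.

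Without stimulation, 3 of the 32 genes were lower in ACAT1 KO cells, all of them enzymes, Hmgcs1, Hsd17b7 and Fdft1, where 1.17% of all 16440 genes tested were lower. No member was higher, against 0.742% of all genes, and none was higher at an unadjusted p under 0.05 in edgeR, against 9.73%. In DESeq2 no member was past the threshold as higher, where 814 of 16440 genes were. At an unadjusted p under 0.05, 18 were lower, against 9.93% of all genes. In 19 genes every ACAT1 KO library was below every WT library (on CPM scaled over the 6 libraries of the state, as for all such counts between the genotypes), against 12.7% of all genes, and in none was every one above, against 13.1%. The median log2 fold change was -0.27 over the members and 0.004 over all genes, and 16 of the 18 enzymes were below 0. The count of 3 was sensitive to the analysis. It was 14 in DESeq2, where the number lower over all 16440 genes also rose, from 192 to 907. It was 0 with the replicate number as a block, where 118 genes were lower over all. It was 0 in 4 of the 6 fits that left out a library (WT 2 or any of the 3 ACAT1 KO), 1 without WT 1 and 4 without WT 3. Over all genes 7 were lower without WT 2, and 21, 29 and 8 without ACAT1 KO 1, 2 and 3. The number over all genes was 17 without WT 1 and 278 without WT 3.

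After LPS, 8 members were lower in ACAT1 KO than in WT cells, against 9.12% of 16483 genes, namely the enzymes Sqle, Msmo1, Mvd, Nsdhl and Sc5d with Srebf2, Npc2 and Soat1. Mylip was the 1 member that was higher, against 5.93% of all genes. At an unadjusted p under 0.05, 15 members were lower, against 17.2% of all genes, and 1 was higher, against 14.1%. The 14 genes in which the groups separated with ACAT1 KO lower compare with 19.7% of all genes, and the 1 gene that separated with ACAT1 KO higher with 17.9%. On the scale of all 12 libraries, the one printed per library, Dhcr7 and Nr1h3 separated as well, with ACAT1 KO lower, and no other member differed between the scales. The median was -0.20 over the members and -0.004 over all genes, and again 16 of 18 enzymes were below 0. Leaving out ACAT1 KO library 2 left 2 members lower, and leaving out WT 2, ACAT1 KO 1 or ACAT1 KO 3 left 4 members lower each. Over all genes the number lower also fell in these fits, from 1504 to 577, 798, 668 and 647 in that order. The number past the threshold thus depended on these libraries, for the members and over all genes.

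**Figure D3:**
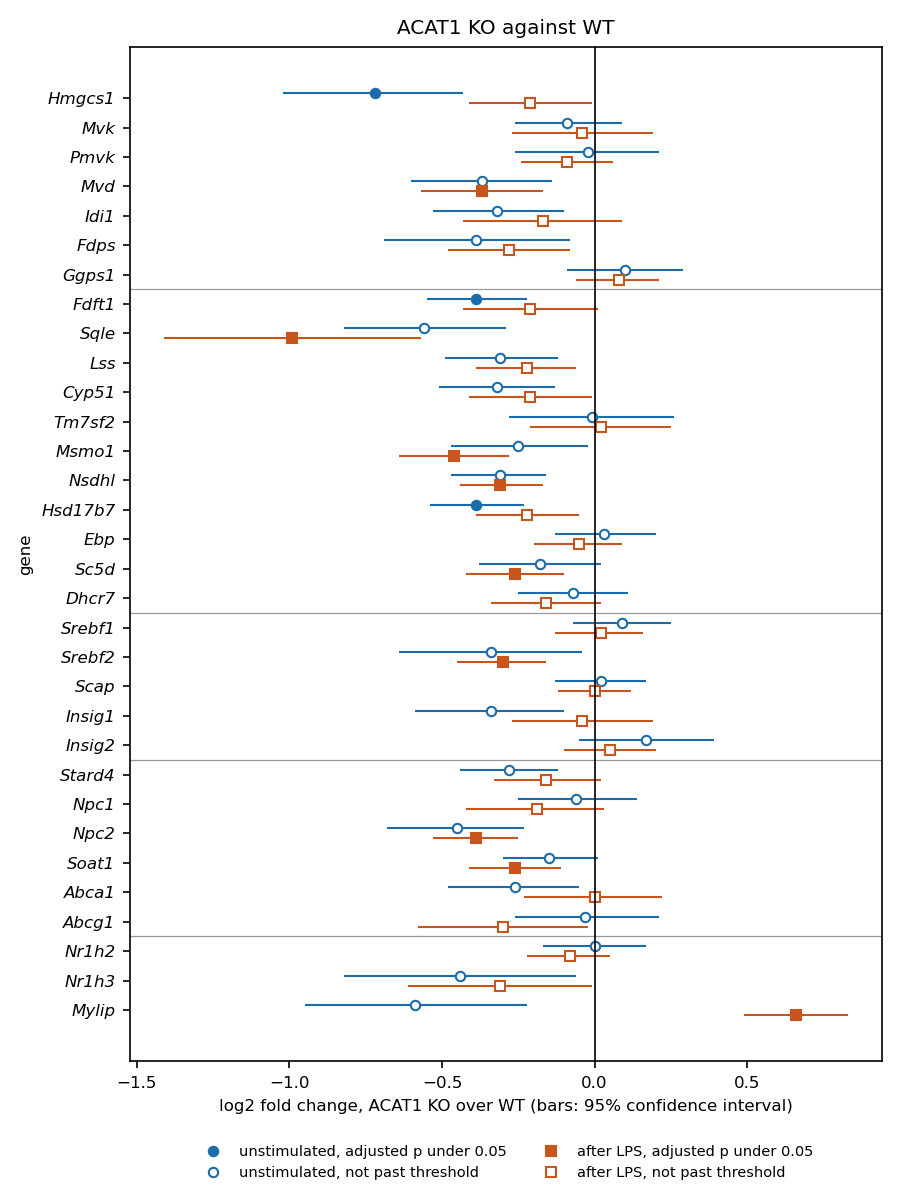
Log2 fold change of ACAT1 KO over WT (horizontal axis) for the 32 genes, unstimulated (circles) and after LPS (squares), with 95% confidence intervals of the quasi-likelihood fit. Filled symbols are past an adjusted p of 0.05, 3 without stimulation and 9 after LPS, and most symbols lie left of 0, with Mylip on opposite sides in the 2 states.

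LPS lowered 17 members in WT cells, against 28% of 16535 genes, and 19 in ACAT1 KO cells, against 31.2%. The members lower in both genotypes were 16. The share of all genes lowered in both was not computed, so this count has nothing to be read against. Among the 18 enzymes, 13 fell in WT and 14 in ACAT1 KO cells. Rises were at the level of all genes, 7 members in WT, against 29.3%, and 8 in ACAT1 KO cells, against 29.5%. Libraries separated completely with LPS lower for 17 members in WT cells (29.6% of all genes) and 18 in ACAT1 KO cells (34.6%), and with LPS higher for 8 (31.4%) and 9 (33.2%). The member medians were -0.30 and -0.31, against -0.018 and -0.026 over all genes. With upper-quartile scaling, which moved the median of all genes to -0.226 in WT and -0.175 in ACAT1 KO cells, 5 members rose and 21 fell in WT, and 5 rose and 20 fell in ACAT1 KO cells. Over all genes that scaling turned 4850 higher and 4638 lower in WT into 3628 and 6681.

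**Figure D4:**
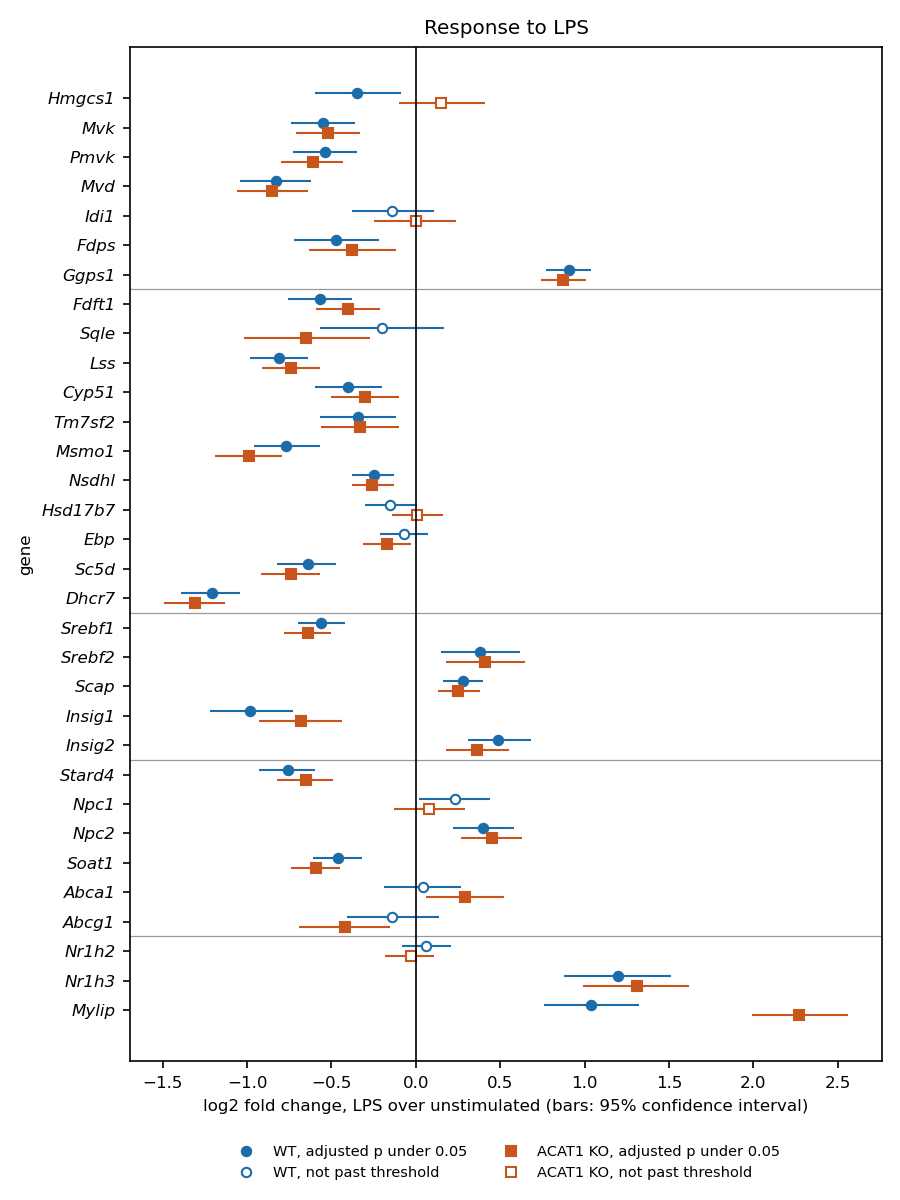
Log2 fold change of LPS over unstimulated cells (horizontal axis) for the 32 genes in WT (circles) and ACAT1 KO cells (squares), with 95% confidence intervals of the joint fit. Filled symbols are past an adjusted p of 0.05, and the 2 genotypes lie close together for most genes and far apart for Mylip.

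Hmgcs1, on chromosome 13 from 119690379 to 119708260, encodes HMG-CoA synthase, which condenses acetyl-CoA units ahead of mevalonate. It was at 45.5, 64.6 and 53.6 CPM in WT and 34.6, 32.1 and 31.7 CPM in ACAT1 KO cells without stimulation. All ACAT1 KO libraries were lower than all WT libraries, and the log2 fold change was -0.72 (SE 0.124, edgeR adjusted p = 0.0455), or 1.65-fold lower. After LPS it was at 40.3, 48.4 and 39.7 CPM in WT and 37.5, 38.2 and 33.9 CPM in ACAT1 KO cells, again without overlap, a log2 fold change of -0.21 (SE 0.0877, edgeR adjusted p = 0.149). The log2 change with LPS was -0.35 (SE 0.117, edgeR adjusted p = 0.0225) in WT and 0.15 (SE 0.117, edgeR adjusted p = 0.272) in ACAT1 KO cells, which started lower. The WT call was lost without unstimulated WT 2, WT LPS 1 or WT LPS 3, in a fit of WT libraries alone and with a term for the raised antisense share. The difference between these responses was 0.50 (SE 0.165, edgeR adjusted p = 0.309), and with each line as a block 0.50 (SE 0.0894, edgeR adjusted p = 0.0364). Exons of other genes on the opposite strand cover 12.1% of its exon bases, and the difference between the genotypes was -0.76 between unstimulated ACAT1 KO 2 and the mean of WT 1 and WT 2, the libraries with the raised antisense share, and -0.69 within the 3 others. The call without stimulation was lost in each of the 6 fits without a library, at estimates of -0.85 to -0.59 over all alternatives.

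The next steps, from mevalonate to isopentenyl diphosphate, fell with LPS. Mvk, mevalonate kinase, was at 15.7, 17.2 and 17.3 CPM in WT and 15.5, 15.1 and 16.3 CPM in ACAT1 KO cells without stimulation. After LPS Mvk was at 10.6, 12.6 and 11.1 CPM in WT and 9.86, 11.2 and 11.7 CPM in ACAT1 KO cells. All LPS libraries were below all unstimulated ones. Pmvk, phosphomevalonate kinase, was at 24.6, 24.4 and 26.6 CPM in WT and 27, 21.1 and 25.9 CPM in ACAT1 KO cells without stimulation. After LPS Pmvk was at 16.5, 18 and 17.6 CPM in WT and 16.5, 15.8 and 16 CPM in ACAT1 KO cells. It separated by LPS in the same way, and for both kinases the genotypes overlapped in each state. The log2 change with LPS in WT and ACAT1 KO cells was -0.55 (SE 0.0881) and -0.52 (SE 0.088) for Mvk and -0.54 (SE 0.0855) and -0.61 (SE 0.0855) for Pmvk. Mvd, mevalonate diphosphate decarboxylase, differed by genotype as well. It was at 26.5, 29.7 and 26.5 CPM in WT and 23.8, 19.1 and 20.7 CPM in ACAT1 KO cells without stimulation. After LPS Mvd was at 14.9, 17.2 and 14.2 CPM in WT and 12.3, 11.5 and 11.5 CPM in ACAT1 KO cells, so that ACAT1 KO libraries were below WT libraries in both states. Its log2 fold change was -0.37 (SE 0.0958, edgeR adjusted p = 0.106) without stimulation and -0.37 (SE 0.0873, edgeR adjusted p = 0.0276) after LPS, and the latter call was lost without WT 2 or without any ACAT1 KO library. The log2 change of Mvd with LPS was -0.83 (SE 0.0961) in WT and -0.85 (SE 0.0964) in ACAT1 KO cells.

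Prenyl diphosphates are the branch point between sterols and protein prenylation. Idi1, isopentenyl diphosphate isomerase, passed no test, with log2 fold changes of -0.32 (SE 0.0902) and -0.17 (SE 0.114) between the genotypes and -0.14 (SE 0.112) and 0.00 (SE 0.112) for LPS. Its ACAT1 KO libraries were all below WT without stimulation, and the groups overlapped in the other comparisons. Fdps, farnesyl diphosphate synthase, was at 17.4, 18.1 and 19.9 CPM in WT and 16.5, 11.8 and 13.8 CPM in ACAT1 KO cells without stimulation. After LPS Fdps was at 13.6, 14 and 12.4 CPM in WT and 11.8, 10.1 and 10.5 CPM in ACAT1 KO cells. ACAT1 KO libraries were lower in each state, at -0.39 (SE 0.129, edgeR adjusted p = 0.169) and -0.28 (SE 0.0869, edgeR adjusted p = 0.0656), neither past the threshold. The log2 change of Fdps with LPS was -0.47 (SE 0.115) in WT and -0.38 (SE 0.115) in ACAT1 KO cells, both past the threshold, and the latter was not without unstimulated ACAT1 KO 1 or ACAT1 KO LPS 2. Ggps1 makes geranylgeranyl diphosphate for prenylation, away from sterols, and moved the other way from the enzymes that fell with LPS. It was at 13.4, 13.9 and 13.1 CPM in WT and 13.9, 15.3 and 13.7 CPM in ACAT1 KO cells without stimulation. After LPS Ggps1 was at 26, 24.5 and 25.2 CPM in WT and 27.1, 26.4 and 25.2 CPM in ACAT1 KO cells. Every LPS library was above every unstimulated one, a rise of 0.91 (SE 0.0621, edgeR adjusted p = 1.65e-07) in WT and 0.87 (SE 0.0618, edgeR adjusted p = 1.83e-07) in ACAT1 KO cells, and it was the only 1 of the 18 enzymes past the threshold as higher.

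Squalene synthesis and epoxidation are the committed steps towards sterols. Fdft1, squalene synthase, was at 28, 31.5 and 28.6 CPM in WT and 22.3, 23.1 and 21.6 CPM in ACAT1 KO cells without stimulation. The ACAT1 KO libraries lay below all WT libraries, with a log2 fold change of -0.39 (SE 0.0703, edgeR adjusted p = 0.0499), just inside the threshold. Exons of other genes on the opposite strand cover 18.3% of its exon bases, and the difference was -0.35 within the libraries with the raised antisense share and -0.38 within the others. The call was lost in all 6 fits without a library and under relative log expression, upper quartile, no filter, limma-voom and the replicate block. After LPS Fdft1 was at 17.8, 21.8 and 19.9 CPM in WT and 15.5, 18.2 and 17 CPM in ACAT1 KO cells, where the genotypes overlapped (-0.21, SE 0.0947, edgeR adjusted p = 0.178). Its log2 change with LPS was -0.57 (SE 0.0862) in WT and -0.40 (SE 0.0861) in ACAT1 KO cells, both past the threshold.

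Sqle, squalene epoxidase and a rate-limiting enzyme of the pathway, showed the widest gap between the genotypes among the enzymes after LPS. It was at 156, 130 and 115 CPM in WT and 92.5, 87.4 and 90.5 CPM in ACAT1 KO cells without stimulation, with a log2 fold change of -0.56 (SE 0.111, edgeR adjusted p = 0.0636). After LPS it was at 157, 101 and 90.3 CPM in WT and 57.4, 57.3 and 58.1 CPM in ACAT1 KO cells. The ACAT1 KO libraries lay close together and below every WT library, whereas WT library 1 was well above the other WT libraries. The log2 fold change after LPS was -0.99 (SE 0.181, edgeR adjusted p = 0.0126), or 1.99-fold lower, and without ACAT1 KO library 2 the adjusted p in edgeR was 0.0526. LPS lowered Sqle in ACAT1 KO cells, -0.65 (SE 0.171, edgeR adjusted p = 0.00605), and in WT cells the change was -0.20 (SE 0.17, edgeR adjusted p = 0.339), or -0.23 (SE 0.0728, edgeR adjusted p = 0.0227) with each line as a block. The difference between the responses was -0.45 (SE 0.24, edgeR adjusted p = 0.653).

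The enzymes of ring closure and demethylation also fell with LPS. Lss, lanosterol synthase, was at 33.9, 38.2 and 34 CPM in WT and 30.4, 26.2 and 28.6 CPM in ACAT1 KO cells without stimulation. After LPS Lss was at 19.5, 21.3 and 19.7 CPM in WT and 16.8, 16.2 and 18 CPM in ACAT1 KO cells. The 4 groups of Lss did not overlap. Cyp51, the lanosterol demethylase, was at 60, 65.9 and 58.6 CPM in WT and 53.9, 46.4 and 46.6 CPM in ACAT1 KO cells without stimulation. After LPS Cyp51 was at 43.4, 51.3 and 45.5 CPM in WT and 44.2, 37.6 and 37.6 CPM in ACAT1 KO cells. ACAT1 KO libraries of Cyp51 were below WT without stimulation and overlapped it after LPS. The log2 fold changes between the genotypes were -0.31 (SE 0.0796, edgeR adjusted p = 0.106) and -0.22 (SE 0.0722, edgeR adjusted p = 0.0758) for Lss and -0.32 (SE 0.0802, edgeR adjusted p = 0.0982) and -0.21 (SE 0.088, edgeR adjusted p = 0.147) for Cyp51, none past the threshold. The log2 changes with LPS in WT and ACAT1 KO cells were -0.81 (SE 0.0768) and -0.74 (SE 0.0768) for Lss and -0.40 (SE 0.0914) and -0.30 (SE 0.0914) for Cyp51. That of Cyp51 in ACAT1 KO cells was not past the threshold without unstimulated ACAT1 KO 1, ACAT1 KO LPS 2 or ACAT1 KO LPS 3. Tm7sf2, a sterol reductase, was at 11.9, 9.37 and 11 CPM in WT and 10.6, 10.2 and 11.1 CPM in ACAT1 KO cells without stimulation. After LPS Tm7sf2 was at 9.11, 7.52 and 8.79 CPM in WT and 8.03, 8.97 and 8.41 CPM in ACAT1 KO cells. Its genotypes overlapped in both states, and its log2 changes with LPS were -0.34 (SE 0.105) and -0.33 (SE 0.105), both past the threshold. The call in WT was lost without WT LPS 2, and that in ACAT1 KO cells without unstimulated ACAT1 KO 3 or ACAT1 KO LPS 1.

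Msmo1, a methylsterol monooxygenase, differed between the genotypes after LPS whichever library was left out. It was at 86.5, 87.4 and 94.9 CPM in WT and 85.6, 68.8 and 71.1 CPM in ACAT1 KO cells without stimulation, where the log2 fold change was -0.25 (SE 0.0933, edgeR adjusted p = 0.213). After LPS it was at 47.9, 58.6 and 51.7 CPM in WT and 37.8, 38.2 and 37.4 CPM in ACAT1 KO cells. Every ACAT1 KO library was below every WT library, a log2 fold change of -0.46 (SE 0.0769, edgeR adjusted p = 0.00944), and the call held in all 6 fits without a library, at -0.52 to -0.37 over all alternatives. The log2 change of Msmo1 with LPS was -0.77 (SE 0.0911) in WT and -0.99 (SE 0.0916) in ACAT1 KO cells. Nsdhl, the sterol dehydrogenase that works after it, was at 27.7, 28 and 28.1 CPM in WT and 23.9, 21.9 and 21.3 CPM in ACAT1 KO cells without stimulation. After LPS Nsdhl was at 23.3, 24.3 and 22.8 CPM in WT and 19, 18.8 and 18.4 CPM in ACAT1 KO cells. ACAT1 KO libraries were lower in both states without overlap, at -0.31 (SE 0.0648, edgeR adjusted p = 0.0684) without stimulation and -0.31 (SE 0.0577, edgeR adjusted p = 0.014) after LPS. The call after LPS was lost without ACAT1 KO 2 or without ACAT1 KO 3. The log2 change of Nsdhl with LPS was -0.25 (SE 0.0572) in WT and -0.26 (SE 0.0572) in ACAT1 KO cells.

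Hsd17b7, a keto-sterol reductase on the minus strand of chromosome 1 from 169949535 to 169969241, differed by genotype but not by LPS past the threshold. It was at 31.1, 33.4 and 29.6 CPM in WT and 24.2, 23.4 and 23.8 CPM in ACAT1 KO cells without stimulation. The ACAT1 KO libraries were all lower, at -0.39 (SE 0.0648, edgeR adjusted p = 0.0442). The difference was -0.45 within the libraries with the raised antisense share and -0.30 within the others. After LPS it was at 26.6, 30.6 and 27.9 CPM in WT and 23.7, 22.8 and 25.3 CPM in ACAT1 KO cells, still without overlap, and the log2 fold change was -0.22 (SE 0.0743, edgeR adjusted p = 0.0811). The call without stimulation held in 1 of 6 fits without a library, that without WT 3. The LPS response was -0.15 (SE 0.0695, edgeR adjusted p = 0.0939) in WT and 0.01 (SE 0.0695, edgeR adjusted p = 0.937) in ACAT1 KO cells, and with each line as a block the WT value was -0.15 (SE 0.0539, edgeR adjusted p = 0.0428).

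The last enzymes convert the sterol ring system to cholesterol. Ebp, a sterol isomerase, was at 22.3, 21.9 and 23.7 CPM in WT and 24.4, 21.8 and 23 CPM in ACAT1 KO cells without stimulation. After LPS Ebp was at 21.3, 21.6 and 21.8 CPM in WT and 19.8, 21.7 and 19.9 CPM in ACAT1 KO cells. It had overlapping genotypes throughout and fell with LPS in ACAT1 KO cells, -0.17 (SE 0.0627, edgeR adjusted p = 0.0325), a call lost with the length offset and without unstimulated WT 1, ACAT1 KO 1 or ACAT1 KO 3, or ACAT1 KO LPS 1 or 3, while the change in WT cells was -0.07 (SE 0.0628, edgeR adjusted p = 0.363). Sc5d, a sterol desaturase, was at 39.7, 42.3 and 46.4 CPM in WT and 40.9, 34.9 and 37.3 CPM in ACAT1 KO cells without stimulation, with overlap. After LPS Sc5d was at 25.2, 28.8 and 28.3 CPM in WT and 23.4, 22.3 and 22 CPM in ACAT1 KO cells. All ACAT1 KO libraries were then lower, at -0.26 (SE 0.0693, edgeR adjusted p = 0.0399). This call was kept without WT LPS 1, lost without any of the other 5 libraries, and lost under upper-quartile scaling, the length offset and the replicate block. The log2 change of Sc5d with LPS was -0.64 (SE 0.08) in WT and -0.74 (SE 0.0802) in ACAT1 KO cells. Dhcr7, which makes the final reduction to cholesterol, had the largest fall of the 32 genes. It was at 72.3, 72.5 and 69.8 CPM in WT and 72.4, 69.6 and 61.1 CPM in ACAT1 KO cells without stimulation. After LPS Dhcr7 was at 29.7, 31.6 and 31.2 CPM in WT and 29.7, 27.8 and 24.4 CPM in ACAT1 KO cells. This was 2.32-fold lower in WT and 2.48-fold lower in ACAT1 KO cells, with log2 fold changes of -1.21 (SE 0.0806, edgeR adjusted p = 1.26e-07) and -1.31 (SE 0.0808, edgeR adjusted p = 5.81e-08). The log2 fold change between the genotypes was -0.07 (SE 0.0741) without stimulation, with overlap, and -0.16 (SE 0.078) after LPS, where WT 1 and ACAT1 KO 1 were nearly equal and the scale set which was higher.

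The 2 SREBP genes moved in opposite directions with LPS. Srebf2, whose product drives the cholesterol synthesis genes, was at 329, 282 and 233 CPM in WT and 232, 225 and 204 CPM in ACAT1 KO cells without stimulation. After LPS Srebf2 was at 383, 372 and 345 CPM in WT and 302, 304 and 273 CPM in ACAT1 KO cells. It rose with LPS by 0.38 (SE 0.108, edgeR adjusted p = 0.00932) in WT and 0.41 (SE 0.108, edgeR adjusted p = 0.0058) in ACAT1 KO cells, while 13 and 14 of the 18 enzymes fell. With upper-quartile scaling neither rise was past the threshold, at edgeR adjusted p values up to 0.192. ACAT1 KO libraries were below WT libraries in both states, by a narrow margin between WT 3 and ACAT1 KO 1 without stimulation. The log2 fold change was -0.34 (SE 0.127, edgeR adjusted p = 0.206) without stimulation and -0.30 (SE 0.0641, edgeR adjusted p = 0.0208) after LPS. Without stimulation the difference was -0.42 within the libraries with the raised antisense share and -0.09 within the others. The call after LPS was lost without WT 2 or any of the 3 ACAT1 KO libraries, with the length offset and in the fit of all 12 libraries. Srebf2 and Sqle lie on chromosome 15, whose genes had median log2 fold changes between the genotypes of -0.1 without stimulation and -0.12 after LPS. Genes within 5 Mb had medians of -0.08 and -0.14 around Srebf2 and -0.06 and -0.15 around Sqle. Their part in the values of the 2 genes was not tested. Srebf1, whose products favour fatty acid synthesis, was at 156, 149 and 155 CPM in WT and 169, 166 and 151 CPM in ACAT1 KO cells without stimulation. After LPS Srebf1 was at 98, 105 and 109 CPM in WT and 103, 109 and 99.6 CPM in ACAT1 KO cells. The genotypes overlapped in both states, at 0.09 (SE 0.0666) and 0.02 (SE 0.0613), and its log2 change with LPS was -0.56 (SE 0.0637, edgeR adjusted p = 1.26e-05) in WT and -0.64 (SE 0.0638, edgeR adjusted p = 3.27e-06) in ACAT1 KO cells.

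Among the regulators of SREBP, Insig1 and Insig2 also parted with LPS. Insig1, on chromosome 5 from 28071363 to 28078662, is itself an SREBP target and was at 74.8, 72.5 and 76.2 CPM in WT and 68.3, 53.9 and 52.7 CPM in ACAT1 KO cells without stimulation. ACAT1 KO libraries 2 and 3 were well below WT and library 1 just below it, a log2 fold change of -0.34 (SE 0.103, edgeR adjusted p = 0.141). After LPS Insig1 was at 36.3, 37.6 and 39.7 CPM in WT and 42.5, 33.8 and 32.7 CPM in ACAT1 KO cells, where the groups overlapped (-0.04, SE 0.1, edgeR adjusted p = 0.825), and its log2 change with LPS was -0.98 (SE 0.112, edgeR adjusted p = 1.29e-05) in WT and -0.68 (SE 0.112, edgeR adjusted p = 0.00021) in ACAT1 KO cells. Insig2, which is less tied to SREBP, was at 36.6, 34.2 and 40.6 CPM in WT and 46.1, 38.3 and 40.2 CPM in ACAT1 KO cells without stimulation. After LPS Insig2 was at 55.8, 48.6 and 52.7 CPM in WT and 54.6, 52.5 and 53.3 CPM in ACAT1 KO cells. All LPS libraries were above all unstimulated ones of their genotype, by 0.49 (SE 0.0837, edgeR adjusted p = 0.000302) and 0.36 (SE 0.0834, edgeR adjusted p = 0.0025), and the genotypes overlapped. Scap, the escort of SREBP, was at 64.6, 68.7 and 62.8 CPM in WT and 63.4, 68.9 and 64.9 CPM in ACAT1 KO cells without stimulation. After LPS Scap was at 76, 81.6 and 80.9 CPM in WT and 76.5, 80.3 and 78.2 CPM in ACAT1 KO cells. It rose by 0.28 (SE 0.0558) in WT and 0.25 (SE 0.0557) in ACAT1 KO cells, not past the threshold with upper-quartile scaling, and the genotypes did not differ past the threshold, at 0.02 (SE 0.0633) and 0.00 (SE 0.054).

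**Figure D5:**
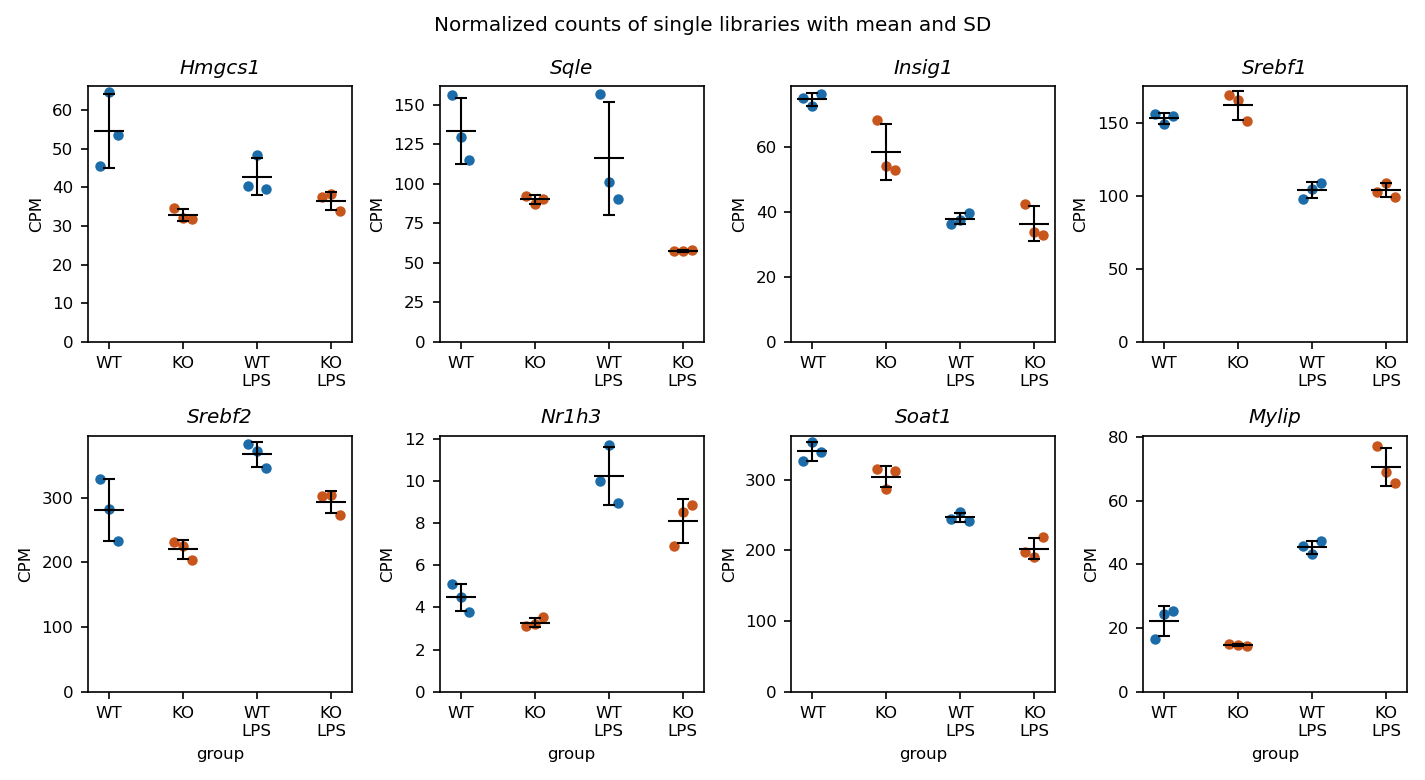
CPM of 8 genes in each library (points), with the mean (long bar) and SD (whiskers) of the 3 libraries of each group, from 0 on linear axes. Srebf2 and Nr1h3 are higher and Insig1, Srebf1 and Soat1 lower after LPS in both genotypes, Sqle is at 57.3 to 58.1 CPM in LPS-treated ACAT1 KO libraries, and Mylip is lower in ACAT1 KO cells before LPS and higher after it.

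Genes of intracellular sterol handling differed among themselves. Stard4, a soluble sterol carrier and SREBP target, was at 47, 50.4 and 49.4 CPM in WT and 42.1, 41.2 and 37.1 CPM in ACAT1 KO cells without stimulation. After LPS Stard4 was at 26, 30.4 and 30.2 CPM in WT and 26.3, 26.2 and 24.2 CPM in ACAT1 KO cells. ACAT1 KO libraries were lower without stimulation, at -0.28 (SE 0.0675, edgeR adjusted p = 0.0925), and overlapped WT after LPS. The log2 change with LPS was -0.76 (SE 0.0752) in WT and -0.65 (SE 0.0752) in ACAT1 KO cells. Npc1, which exports cholesterol from lysosomes, passed the threshold in no comparison when no block was used, with log2 fold changes of -0.06 (SE 0.0808) and -0.19 (SE 0.0964) between the genotypes and 0.23 (SE 0.0966) and 0.08 (SE 0.0965) for LPS. With each line as a block its WT response was 0.22 (SE 0.068, edgeR adjusted p = 0.0192). Npc2, which hands cholesterol to Npc1, was at 459, 427 and 455 CPM in WT and 369, 296 and 307 CPM in ACAT1 KO cells without stimulation. After LPS Npc2 was at 619, 587 and 564 CPM in WT and 462, 447 and 423 CPM in ACAT1 KO cells. It was lower in every ACAT1 KO library of each state, at -0.45 (SE 0.0942, edgeR adjusted p = 0.0686) without stimulation and -0.39 (SE 0.0601, edgeR adjusted p = 0.00737) after LPS, and the latter call held in all 6 fits without a library. LPS raised it by 0.40 (SE 0.0822) in WT and 0.45 (SE 0.0823) in ACAT1 KO cells. Genes within 5 Mb of Npc2 on chromosome 12 had a median log2 fold change of -0.27 over 110 genes without stimulation and -0.27 over 106 after LPS, and the whole chromosome had medians of -0.26 and -0.28. Their part in the difference of Npc2 was not tested.

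Soat1 esterifies cholesterol for storage in droplets. It was at 327, 354 and 340 CPM in WT and 315, 287 and 312 CPM in ACAT1 KO cells without stimulation. After LPS Soat1 was at 244, 254 and 242 CPM in WT and 198, 191 and 219 CPM in ACAT1 KO cells. The log2 fold change between the genotypes was -0.15 (SE 0.0653, edgeR adjusted p = 0.272) and -0.26 (SE 0.0661, edgeR adjusted p = 0.0344), all ACAT1 KO libraries being lower in both states. The call after LPS was kept without WT LPS 1 or ACAT1 KO LPS 3, lost without any of the other 4 libraries, and lost under upper-quartile scaling, the length offset and the replicate block. The log2 change of Soat1 with LPS was -0.46 (SE 0.0656, edgeR adjusted p = 7.03e-05) in WT and -0.59 (SE 0.0657, edgeR adjusted p = 8.6e-06) in ACAT1 KO cells. Abca1 and Abcg1 export cholesterol from the cell. Abca1 was at 185, 174 and 147 CPM in WT and 137, 139 and 142 CPM in ACAT1 KO cells without stimulation, with a log2 fold change of -0.26 (SE 0.0906, edgeR adjusted p = 0.181). After LPS Abca1 was at 190, 184 and 146 CPM in WT and 182, 167 and 164 CPM in ACAT1 KO cells, with overlap, at 0.00 (SE 0.0981). It rose with LPS in ACAT1 KO cells by 0.29 (SE 0.104, edgeR adjusted p = 0.0294), a call lost with upper-quartile scaling, the length offset, and without any unstimulated ACAT1 KO library or ACAT1 KO LPS 1 or 2. The change was 0.04 (SE 0.104, edgeR adjusted p = 0.767) in WT cells. Abcg1 was at 108, 125 and 108 CPM in WT and 120, 114 and 98.1 CPM in ACAT1 KO cells without stimulation, with overlap. After LPS Abcg1 was at 106, 109 and 94.7 CPM in WT and 90.1, 92.4 and 66 CPM in ACAT1 KO cells, with ACAT1 KO library 3 the lowest. The log2 fold change between the genotypes after LPS was -0.30 (SE 0.122, edgeR adjusted p = 0.136). Abcg1 fell with LPS in ACAT1 KO cells, -0.42 (SE 0.125, edgeR adjusted p = 0.0119), and the change in WT cells was -0.14 (SE 0.125, edgeR adjusted p = 0.379). The responses to LPS of both exporters did not differ past the threshold between the genotypes, at 0.25 (SE 0.147, edgeR adjusted p = 0.702) for Abca1 and -0.28 (SE 0.176, edgeR adjusted p = 0.733) for Abcg1.

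Nr1h3 rose with LPS and Nr1h2 did not pass the threshold. Nr1h3 was at 5.11, 4.5 and 3.8 CPM in WT and 3.1, 3.21 and 3.52 CPM in ACAT1 KO cells without stimulation. After LPS Nr1h3 was at 10, 11.7 and 8.96 CPM in WT and 6.89, 8.53 and 8.87 CPM in ACAT1 KO cells, a rise of 2.29-fold in WT (log2 change 1.20, SE 0.143, edgeR adjusted p = 1.83e-05) and 2.47-fold in ACAT1 KO cells (1.31, SE 0.144, edgeR adjusted p = 8.01e-06) from low levels. ACAT1 KO libraries were below WT in both states on this scale, with log2 fold changes of -0.44 (SE 0.159, edgeR adjusted p = 0.198) and -0.31 (SE 0.131, edgeR adjusted p = 0.147). With TMM over the 6 LPS libraries alone WT 3 was at 8.02 and ACAT1 KO 3 at 8.08 CPM, so that the groups overlapped after LPS. Genes within 5 Mb of Nr1h3 on chromosome 2 had medians of 0.37 without stimulation and 0.33 after LPS. Their part in the values of Nr1h3 was not tested. Nr1h2 was at 81.5, 73.1 and 76.4 CPM in WT and 82.7, 72.7 and 74.4 CPM in ACAT1 KO cells without stimulation. After LPS Nr1h2 was at 82.9, 77.8 and 80.7 CPM in WT and 78.5, 75.3 and 70.7 CPM in ACAT1 KO cells. All 4 groups of Nr1h2 overlapped, with log2 fold changes of 0.00 (SE 0.0722) and -0.08 (SE 0.0578) between the genotypes and 0.06 (SE 0.0665) and -0.03 (SE 0.0664) for LPS.

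Mylip, on chromosome 13 from 45389742 to 45412022, was the 1 member whose response to LPS differed between the genotypes past the threshold, where 0.0484% of 16535 genes had a higher log2 response in ACAT1 KO cells past the threshold and 0.139% a lower. It was at 16.7, 24.3 and 25.3 CPM in WT and 14.9, 14.6 and 14.4 CPM in ACAT1 KO cells without stimulation. After LPS Mylip was at 45.7, 43.3 and 47.3 CPM in WT and 77.3, 69.2 and 65.7 CPM in ACAT1 KO cells. Before LPS every ACAT1 KO library was below every WT library, at -0.59 (SE 0.154, edgeR adjusted p = 0.107), and after LPS every one was above, at 0.66 (SE 0.0728, edgeR adjusted p = 0.00289), or 1.58-fold higher. LPS raised Mylip 2.05-fold in WT cells (1.04, SE 0.127, edgeR adjusted p = 2.14e-05) and 4.83-fold in ACAT1 KO cells (2.27, SE 0.131, edgeR adjusted p = 3.47e-08). The difference between the responses was 1.23 (SE 0.178, edgeR adjusted p = 0.0333), with a 95% confidence interval of 0.84 to 1.62. Of the 12 fits that left out a library, 3 kept this call, those without WT 1 or WT 3 of the unstimulated and WT 3 of the LPS libraries, with estimates of 1.13 to 1.44 over all alternatives and edgeR adjusted p values up to 0.1. The higher level after LPS was kept in all 6 fits without a library. Genes within 5 Mb of Mylip had medians of -0.09 and -0.06 in the 2 states. Among the cell type markers, Pdgfra and Adgre1 also had a higher log2 response in ACAT1 KO cells, at 1.22 (SE 0.19, edgeR adjusted p = 0.0383) and 0.83 (SE 0.138, edgeR adjusted p = 0.0423).

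No other of the 32 genes had a difference in response past the threshold in this fit. Among the enzymes the 95% confidence interval of the difference was widest for Sqle, -0.97 to 0.08. It was -0.34 to 0.15 for Dhcr7 and -0.05 to 0.64 for Insig1.

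The same pathways hold other genes, in lists kept beside the members. Counts in these lists are read against 28% of all genes lowered and 29.3% raised by LPS in WT cells, 31.2% and 29.5% in ACAT1 KO cells, 1.17% lower and 0.742% higher in unstimulated ACAT1 KO cells, and 9.12% and 5.93% after LPS. Of 14 tested genes of sterol synthesis and SREBP processing, 1 was higher in unstimulated ACAT1 KO cells, Erlin1, which binds cholesterol and holds SREBP back in the endoplasmic reticulum, at 0.35 (SE 0.0621, edgeR adjusted p = 0.0464), and its relative Erlin2 had 0.25 (SE 0.0583, edgeR adjusted p = 0.087). None passed the threshold after LPS in edgeR, where 3 had an unadjusted p under 0.05. LPS raised 6 and lowered 3 of the 14 in WT and raised 6 and lowered 4 in ACAT1 KO cells, among them Acat2, the cytosolic thiolase that supplies Hmgcs1, at -0.72 (SE 0.0655) and -0.64 (SE 0.0654), and Nus1, of dolichol synthesis, at 0.56 (SE 0.0626) and 0.55 (SE 0.0625). Of 13 SREBP-1 fatty acid genes, LPS lowered 8 and raised 2 in WT and lowered 7 and raised 3 in ACAT1 KO cells. Scd2, a stearoyl-CoA desaturase, was at 583, 600 and 502 CPM in WT and 562, 584 and 516 CPM in ACAT1 KO cells without stimulation. After LPS Scd2 was at 143, 152 and 132 CPM in WT and 126, 130 and 122 CPM in ACAT1 KO cells, a log2 change of -1.98 (SE 0.0833, edgeR adjusted p = 3.59e-09) in WT and -2.14 (SE 0.0837, edgeR adjusted p = 1.73e-09) in ACAT1 KO cells. Lpin1, a phosphatidic acid phosphatase, changed by -1.30 (SE 0.154) and -1.44 (SE 0.156) with LPS and was lower in ACAT1 KO cells after LPS, at -0.63 (SE 0.17, edgeR adjusted p = 0.0435), the 1 gene of this list past the threshold between the genotypes. Without stimulation none passed in edgeR, and 1 had an unadjusted p under 0.05.

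Of 11 other LXR and oxysterol genes tested for LPS, 7 fell and none rose in WT cells, and 6 fell and 1 rose in ACAT1 KO cells, while Nr1h3 itself rose. None rose in WT cells at an unadjusted p under 0.05 in edgeR either. Rxra, the retinoid X receptor that pairs with LXR, was at 75, 59.8 and 63.6 CPM in WT and 81, 90.3 and 84.4 CPM in ACAT1 KO cells without stimulation. After LPS Rxra was at 25.3, 23.4 and 27.9 CPM in WT and 30.3, 31.2 and 31.9 CPM in ACAT1 KO cells, a log2 change of -1.37 (SE 0.0901) and -1.45 (SE 0.09). Rxra was higher in ACAT1 KO cells after LPS, at 0.31 (SE 0.077, edgeR adjusted p = 0.0345), the 1 gene of this list past the threshold between the genotypes. Without stimulation none of the 12 tested passed in edgeR, and 2 had an unadjusted p under 0.05. Cyp27a1, the sterol hydroxylase of mitochondria, changed by -0.92 (SE 0.0711) and -0.91 (SE 0.071) with LPS. Of 13 sterol trafficking genes, Osbpl8, an oxysterol-binding protein of the endoplasmic reticulum, was lower in ACAT1 KO cells in both states. It was at 361, 434 and 322 CPM in WT and 226, 227 and 217 CPM in ACAT1 KO cells without stimulation (-0.73, SE 0.11, edgeR adjusted p = 0.039). After LPS Osbpl8 was at 549, 498 and 465 CPM in WT and 363, 328 and 360 CPM in ACAT1 KO cells (-0.50, SE 0.0765, edgeR adjusted p = 0.00711). Lipa, the lysosomal lipase that frees cholesterol from esters, was higher in ACAT1 KO cells after LPS, 0.40 (SE 0.106, edgeR adjusted p = 0.0405), and at 0.41 (SE 0.0887, edgeR adjusted p = 0.0721) without stimulation. LPS raised 5 and lowered 4 of these 13 genes in WT and raised 4 and lowered 4 in ACAT1 KO cells, close to the shares of all genes.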

How the data were processed

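The authors trimmed reads (Trimmomatic 0.33), aligned them to GRCm38 (HISAT2) and quantified genes (StringTie), per the labels and methods, and deposited whole-number counts per gene, not normalized, in a table for each state. The step that gave counts, and whether it used the strand, is not given in the sources used here. The tables also hold the authors' fold changes, p-values and 12 columns of log2 values per library, which were not used. Repeated entries (59 and 57) were removed.

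Counts were tested in edgeR 4.0.16 (R 4.3.3) with TMM and filterByExpr by the two-sided quasi-likelihood test: ACAT1 KO against WT in the 6 libraries of each state, and LPS responses and their difference in a joint fit of 12 libraries over 16699 shared genes. Alternatives used DESeq2 1.42.0 and limma 3.58.1. The scripts were tested on simulated data. Replicates of a group differed beyond sampling noise (chi-square per degree of freedom 31.7 to 269 over 12 pairs). Totals of 56948593 to 167280149 counts leave the spread between libraries of a group as the limit on precision. The biological coefficient of variation, the spread between libraries beyond sampling noise, was 0.285 without stimulation and 0.108 after LPS. Numbers of genes past the threshold in each state were therefore reached at different precision.

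Replicate numbers were taken to pair unstimulated and LPS libraries of a line, which the labels do not state. Their deviations from group means correlated from 0.139 to 0.454 over 11961 genes with a mean of at least 1 CPM, a filter added after 1 pair gave 0.0913 over all 16535. Nothing in the labels ties a number between the genotypes, where the same correlation was -0.412, 0.745 and 0.745 for numbers 1, 2 and 3 without stimulation and 0.126, 0.173 and -0.108 after LPS. For numbers 2 and 3 without stimulation, this exceeded the 0.139 to 0.454 between libraries taken as the same line. The spread of unstimulated libraries was therefore not a spread between lines alone, and the source of the shared part was not tested. Unstimulated libraries 2 and 3 match between the genotypes in whether the antisense share was raised, and libraries 1 do not. Lengths and positions are from the GENCODE annotation of GRCm38. Members and lists were chosen with earlier results of these data known. All members are accounted for, library values are given for those past the threshold in any comparison and for 6 fixed genes, and at most 3 genes with the smallest p are named from other lists.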

Additional observations from a re-analysis of the deposited data

Results flagged for a closer look

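The response of Mylip to LPS differed between the genotypes by a test of that difference, 1.23 on the log2 scale for ACAT1 KO minus WT (edgeR adjusted p = 0.0333), with LPS responses of 2.27 and 1.04 in 3 lines each.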

How the results depend on the processing

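Of the 64 member values past the threshold, none changed direction in the 1327 alternative values computed, of which 1235 stayed past it and 92 fell short. Of the 96 member values not past it, 30 changed sign in at least 1 alternative, and the number of the 18 enzymes below 0 in unstimulated ACAT1 KO cells, 16, ranged from 14 to 17. Without stimulation the number of members lower in ACAT1 KO cells was 3, with 192 genes lower over all. Brackets give the number lower over all genes in each alternative. The member count was 5 with at least 10 counts in every library (284), 14 in DESeq2 (907), 1 in limma-voom (190) and 0 with the replicate block (118). It was 10 with all 12 libraries in a single fit (758). With a term for the 3 libraries with the raised antisense share, added after the data were seen, it was 6 (376). It ranged from 0 to 4 without 1 library (7 to 278). After LPS the number of members lower, 8 (1504), was 5 with the length offset (1187) and 2 to 8 without 1 library (577 to 1404). The number that rose with LPS in ACAT1 KO cells, 8, was 5 with upper-quartile scaling, whose shift of all genes accompanies it. Differences in response, 1, were 2 with the line as a replicate block, alone or with the term for the strand libraries, Hmgcs1 being the second gene in the block, and 0 to 1 without 1 library. Over all genes the block raised the differences from 8 higher and 23 lower to 138 and 150, or to 200 and 257 with that term. Without 1 library 0 to 12 genes were higher and 2 to 29 lower. Other causes were not tested. The block changed 3 other calls, of Sqle, Hsd17b7 and Npc1 in WT cells, given in the report. With 3 lines a group, an exact permutation test of a single gene cannot go below p = 0.1.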

Other observations

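Ch25h, which makes the oxysterol 25-hydroxycholesterol, was listed after LPS only, at 11, 17 and 17 counts in the WT and 15, 11 and 2 counts in the ACAT1 KO libraries. ACAT1 KO library 3 held the fewest.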
